A study of Mus musculus with 18 samples.

Results

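The cholesterol synthesis and SREBP2 pathway was followed here through 26 named mouse genes. They encode the enzymes that build cholesterol from acetyl-CoA units, the proteins that switch those enzymes on and off, and 1 sterol carrier. The genes were taken as a list of named pathway members, and no value enters the rule, although the list was drawn up with earlier results of these data known. All 26 were found among the 26165 genes of the bone marrow macrophage table and the 26149 genes of the skin table, and all 26 passed the filter on low counts in both. They are not every gene of the pathway.

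The study measured RNA by sequencing in 18 libraries of mouse macrophages that were wild type (WT) or carried PPARg T166A, a substitution in a nuclear receptor that senses lipids. The bone marrow-derived macrophages (BMDM) came from C57BL/6J or PPARg T166A mice and were grown for 7 days with 50 ng/ml of the macrophage growth factor M-CSF, with 3 libraries per genotype. Replicates 1 and 2 of each genotype carry the batch label B1 and replicate 3 carries B2. The skin wound libraries, 6 per genotype, came from dorsal skin 6 days after injury, digested and passed over anti-F4/80 magnetic beads, which hold back cells with the macrophage surface protein F4/80. The labels call these cells skin wound macrophages and give no batch, sex or age for them. The protocol for RNA extraction speaks of adipocytes differentiated in culture, whereas every sample label names macrophages. Nothing in the labels says that replicates are separate animals or cultures, so the tests below weigh differences against the spread among these libraries only, which may be technical. A substitution of 1 residue cannot be checked from gene counts.

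Cells make cholesterol by joining acetyl units into HMG-CoA and mevalonate, turning mevalonate into prenyl units, joining prenyl units into squalene, closing squalene into lanosterol, and trimming lanosterol to cholesterol. The membrane-bound transcription factor SREBP2, encoded by Srebf2, turns on most of these enzymes when sterols are scarce: its escort SCAP carries it to the Golgi to be cut, and the INSIG proteins hold SCAP back when sterols are plentiful. Macrophages take up much cholesterol from dead cells and lipoproteins, a setting in which this pathway is usually turned down.

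Gene counts per library ran from 40072513 to 44152639 in BMDM and from 29357354 to 38774475 in skin. Levels below are in CPM, the count of a gene as a share of its library's scaled total, with scaling done within each table. The 8 macrophage markers checked, such as Lyz2 and Csf1r, were measured in both sources and their summed level ran from 29299.5 to 44452.4 CPM in BMDM. In skin it ran from 9501 to 11836.5 CPM in WT and from 8199 to 8944 CPM in T166A libraries, with no overlap. Markers of other cells were also measured in the skin fraction, among them those of adipocytes, sebocytes and keratinocytes, which use the cholesterol pathway too. Of 11 adipocyte markers tested 9 were higher and 1 lower in T166A, of 9 sebocyte (oil gland) markers 4 were higher, of 7 endothelial markers 5 were higher, and of 6 neutrophil markers 4 were lower. Of 12 keratinocyte markers 1 was lower, and of 8 fibroblast markers none passed (edgeR's quasi-likelihood test, adjusted p under 0.05). Of 6 skeletal muscle markers 5 were lower, and of 5 mast cell markers 1 was higher and 3 were lower. The mast cell list nevertheless summed to 59.4 to 72.7 CPM in WT and to 76.1 to 109.5 CPM in T166A libraries. The 11 adipocyte markers tested had a median log2 fold change of 2.37. Their list summed to 467 to 661 CPM in WT and 498 to 796 CPM in T166A libraries. Most of that sum was Fabp4, which was also measured in BMDM, with a WT mean of 42.1 CPM. The sebocyte markers summed to 53.4 to 81.0 CPM in WT and 74.4 to 120.2 CPM in T166A libraries. The sebocyte sum is no measure of sebocyte RNA alone: in cultured BMDM it ran from 95.8 to 182.3 CPM, nearly all of it Mgst1 and Far2, while Krt79, Dgat2l6 and Fa2h of the same list were at 0 there in every library. In bulk RNA, fewer cells of a type and less RNA per cell cannot be told apart. In BMDM, 9 of 12 adipocyte markers were at 0 in every library, among them Adipoq and Plin1.

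The sequences upstream of the genes are shown first, since SREBP2 acts there together with partner factors. The RefSeq table of promoters (build GRCm38.p6, 250 bases before to 50 bases after each start) holds 28 promoters for 22 of the 26 genes. It lacks Fdft1, Stard4, Sqle and Fdps, which could not be searched. It was searched on both strands for TCACNCCAC, a form of the sterol regulatory element bound by SREBPs, for CCAAT, the box of the partner factor NF-Y, for CACGTG, the E-box, and for GGGCGG, the GC box of Sp1-type factors. The 250 upstream bases are printed 5′ to 3′ for the 6 genes that changed in the skin fraction and hold a match, and for Hmgcs1, the single gene with the sterol regulatory letters. Capitals mark matches to any of the 4 motifs on either strand, so that a CCAAT box on the other strand reads ATTGG and a GC box reads CCGCCC.
Insig1 chr5:28071162-28071411, plus strand: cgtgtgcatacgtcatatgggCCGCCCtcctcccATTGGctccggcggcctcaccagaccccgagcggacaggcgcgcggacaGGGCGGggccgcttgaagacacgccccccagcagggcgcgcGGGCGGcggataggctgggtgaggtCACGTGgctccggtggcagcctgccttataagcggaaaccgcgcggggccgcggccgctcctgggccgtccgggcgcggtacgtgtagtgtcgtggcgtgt
Insig2 chr1:121328025-121328274, minus strand: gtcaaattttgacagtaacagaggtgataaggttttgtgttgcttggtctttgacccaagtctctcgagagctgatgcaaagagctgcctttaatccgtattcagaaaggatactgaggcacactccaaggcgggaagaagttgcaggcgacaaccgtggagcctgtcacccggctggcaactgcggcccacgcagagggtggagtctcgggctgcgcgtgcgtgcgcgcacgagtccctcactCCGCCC
Pmvk chr3:89454291-89454540, plus strand: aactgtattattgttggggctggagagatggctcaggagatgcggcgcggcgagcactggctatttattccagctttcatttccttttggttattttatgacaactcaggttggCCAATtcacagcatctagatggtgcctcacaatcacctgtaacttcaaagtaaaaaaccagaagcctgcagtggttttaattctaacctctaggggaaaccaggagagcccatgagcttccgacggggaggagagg
Ggps1 chr13:14063489-14063738, minus strand: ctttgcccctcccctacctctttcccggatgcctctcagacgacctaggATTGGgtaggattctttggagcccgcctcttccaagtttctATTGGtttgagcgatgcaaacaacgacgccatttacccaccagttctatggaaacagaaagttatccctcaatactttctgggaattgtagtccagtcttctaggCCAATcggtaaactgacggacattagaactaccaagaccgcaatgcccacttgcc
Sc5d chr9:42264301-42264550, minus strand: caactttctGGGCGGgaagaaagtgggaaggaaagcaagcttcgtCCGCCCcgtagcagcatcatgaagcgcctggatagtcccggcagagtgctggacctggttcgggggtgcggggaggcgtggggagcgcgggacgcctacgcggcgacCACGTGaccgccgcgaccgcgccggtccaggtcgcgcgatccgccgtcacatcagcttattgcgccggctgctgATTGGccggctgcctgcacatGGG
Acat2 chr17:12960726-12960975, minus strand: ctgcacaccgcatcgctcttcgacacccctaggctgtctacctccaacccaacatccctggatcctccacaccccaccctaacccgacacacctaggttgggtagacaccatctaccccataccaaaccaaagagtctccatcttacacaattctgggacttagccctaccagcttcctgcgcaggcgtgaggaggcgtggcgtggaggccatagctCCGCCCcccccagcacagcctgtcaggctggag
Hmgcs1 chr13:119690101-119690350, plus strand: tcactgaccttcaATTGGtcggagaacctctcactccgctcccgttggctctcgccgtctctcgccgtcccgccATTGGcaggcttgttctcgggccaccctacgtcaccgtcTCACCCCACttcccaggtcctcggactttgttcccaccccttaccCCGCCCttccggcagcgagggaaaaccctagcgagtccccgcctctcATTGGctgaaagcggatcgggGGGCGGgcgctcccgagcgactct
In Sc5d the last GC box runs past the printed end. Of the 3 Insig2 starts in the table, the one shown is that of the transcript counted here. Neither of the 2 Pmvk starts in the table is that of its counted transcript, which begins at chr3:89459118 in GENCODE M21. The start shown lies 4577 bases away and is the one of the 2 that holds a motif. The nearer start lies 453 bases away and holds none of the 4 motifs. For Ggps1 the start of the counted transcript was not matched, and the other 4 starts lie within 113 bases of it.

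Letters of the sterol regulatory element were found in 1 of the 28 promoters, that of Hmgcs1, as TCACCCCAC at position -137 from the start, against 1.242% of all 32851 promoters in the table. The CCAAT box was found in 19 of the 28 promoters (19 of the 22 genes), against 37.408% of all promoters. The GC box was found in 22 of the 28 promoters (19 of the 22 genes), against 35.658% of all promoters, and the E-box in 6 of the 28 (5 genes), against 7.15%. The 6 printed promoters of genes that changed share no single motif: Acat2 and Insig2 hold a GC box and no CCAAT box, the Pmvk start shown and Ggps1 hold CCAAT boxes and no GC box, and Insig1 and Sc5d hold CCAAT, GC and E-box letters. These matches describe letters in a window and are not bound sites. Sterol regulatory elements with other letters, or outside the window, were not searched for.

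In the skin wound fraction the pathway did not move in 1 direction. Of the 26 genes, 5 were higher in T166A (Acat2, Pmvk, Ggps1, Insig2 and Stard4) and 3 were lower (Insig1, Fdft1 and Sc5d), with means that rose by 15.8% to 35.9% or fell by 16.8% to 25.5% (edgeR's quasi-likelihood test, Benjamini-Hochberg adjusted p under 0.05, n = 6 per genotype). That is 30.8% of the members, beside 25.9% of all 15473 genes tested (29.4% by limma-voom), with 12.7% of all genes higher and 13.2% lower, so the share of members called lies near the background. The median log2 fold change of the 26 genes was -0.02, beside 0.01 over all genes, and 13 of 26 were above 0. At an unadjusted p under 0.05 there were 9 members, beside 36.9% of all genes. The genotypes did not overlap for 2 higher genes and 2 lower genes, beside 5.43% of all genes not overlapping upward and 6.63% downward. Summed over the 26 genes, the level ran from 674 to 710 CPM in WT and from 628 to 665 CPM in T166A libraries. Insig1, Fdft1 and Srebf2, 3 of the most abundant members in CPM, each had a lower mean in T166A. The means went from 96.8 to 72.1, from 117.7 to 97.9 and from 119.2 to 107.8 CPM. The lower sum therefore follows these genes and not the 26 as a set, and the value of Fdft1 is uncertain, as given below. In the RefSeq annotation of GRCm38.p6, the build that mm10 stands for, the higher genes lie at chr17:12943042-12960725 (Acat2), chr3:89454541-89469014 (Pmvk), chr13:14049790-14063566 (Ggps1), chr1:121304353-121332662 (Insig2) and chr18:33199138-33213862 (Stard4). The lower genes lie at chr5:28071412-28078662 (Insig1), chr14:63145150-63181687 (Fdft1) and chr9:42251592-42264300 (Sc5d), and all are protein-coding.

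**Figure D1:**
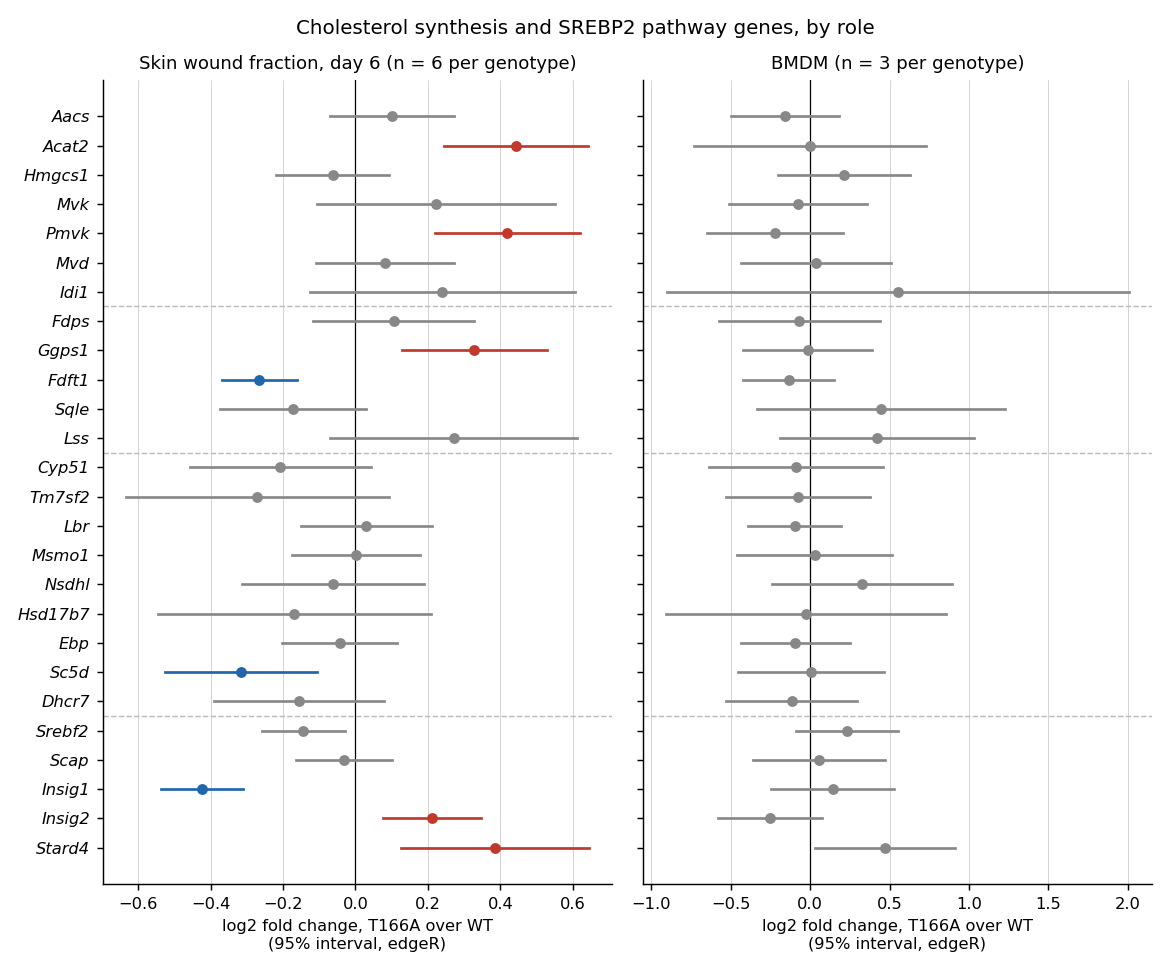
Log2 fold change of T166A over WT for each of the 26 genes, ordered by role and divided by dashed lines, in the skin wound fraction (left, n = 6 per genotype) and in BMDM (right, n = 3 per genotype), with bars for 95% intervals from edgeR and separate horizontal scales. Coloured points passed an adjusted p of 0.05: 5 genes to the right and 3 to the left in skin, none in BMDM.

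The first steps, from acetyl units to activated prenyl units, held 2 of the 5 higher genes. Of the 7 genes of these steps 2 rose, none fell, and the median log2 fold change was 0.22. Acat2 encodes cytosolic acetoacetyl-CoA thiolase, which joins 2 acetyl-CoA units in the opening reaction. Its level in WT libraries had a lowest value of 7.59, a median of 8.78 and a highest value of 9.96 CPM. The T166A libraries ran from 10.1 through a median of 12.4 to 13.3 CPM. All 6 T166A libraries were above all 6 WT libraries. The mean was 8.85 ± 0.905 CPM in WT and 12 ± 1.23 CPM in T166A (SD, n = 6 each), or 0.44 as a log2 fold change with an SE of 0.10 (edgeR adjusted p = 0.00137).

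Pmvk encodes phosphomevalonate kinase, which adds the second phosphate to mevalonate. WT libraries ran from 7.75 through a median of 8.23 to 9.90 CPM, and T166A libraries from 9.97 through 10.9 to 12.9 CPM. The groups did not overlap, although the highest WT library, replicate 1, lay just under the lowest T166A library. The log2 fold change was 0.42 with an SE of 0.10 (edgeR adjusted p = 0.00217), and all 3 transcript rows of the gene were higher in T166A.

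The other 5 genes of this stretch did not pass. Hmgcs1, which encodes the enzyme that forms HMG-CoA and whose promoter holds the sterol regulatory letters, had a WT mean of 43.7 ± 3.31 CPM and a T166A mean of 41.8 ± 5.32 CPM, with a log2 fold change of -0.06 and a 95% interval from -0.22 to 0.09. Mvk, the mevalonate kinase gene, had a log2 fold change of 0.22 (95% interval -0.11 to 0.55) and Idi1, the isopentenyl diphosphate isomerase gene, one of 0.24 (-0.13 to 0.60). Both were low, at 2.60 ± 0.351 and 4.73 ± 0.915 CPM in WT, and their intervals were wide. Mvd, which encodes mevalonate diphosphate decarboxylase, was at 0.08 (-0.11 to 0.27), and its counted row is a non-coding RefSeq entry of the gene. Aacs, the gene of acetoacetyl-CoA synthetase, which makes acetoacetyl-CoA from ketone bodies, was at 0.10 (-0.07 to 0.27).

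Among the 5 genes that make and use longer prenyl chains, 1 rose and 1 fell, with a median log2 fold change of 0.11. Ggps1 encodes the synthase of geranylgeranyl diphosphate, which leaves the sterol route and serves the prenylation of proteins. WT libraries ran from 18.7 through a median of 19.97 to 23.3 CPM and T166A libraries from 18.9 through 27.5 to 29.8 CPM. The groups overlapped, with 5 of 6 T166A libraries above the WT median. The fitted log2 fold change was 0.33 with an SE of 0.10 (edgeR adjusted p = 0.0139). Exons of Ggps1 share 257 bases with Arid4b on the opposite strand, whose log2 fold change was 0.16 (adjusted p = 0.0765, edgeR's quasi-likelihood test).

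Fdft1 encodes squalene synthase, which joins a pair of farnesyl units in the first step committed to sterols. It was lower in T166A: WT libraries ran from 109 through a median of 116 to 127 CPM, and T166A libraries from 91.2 through 98.7 to 101 CPM, without overlap. As a log2 fold change the difference was -0.27 with an SE of 0.05 (edgeR adjusted p = 0.000353). Of the 3698 bases of its counted row, 774 (20.9%) also belong to exons of Ctsb, a lysosomal protease gene on the opposite strand. Ctsb had means of 8690 CPM in WT libraries and 7260 CPM in T166A libraries, or -0.26 as a log2 fold change with an SE of 0.06 (edgeR adjusted p = 0.00319). The sources used here do not give the strand setting of the counting, so reads from Fdft1 and from Ctsb cannot be told apart in that stretch, and the value of Fdft1 is uncertain for this reason.

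The next enzymes of the route did not pass. Sqle, which encodes squalene epoxidase, had a WT mean of 16.4 ± 2.78 CPM and a T166A mean of 14.6 ± 1.32 CPM (log2 fold change -0.17, 95% interval -0.37 to 0.03). Lss, the lanosterol synthase gene, was at 0.27 (-0.07 to 0.61) and was the least abundant member per length. Fdps, the farnesyl diphosphate synthase gene, was at 0.11 (-0.12 to 0.33). Of the counted row of Fdps, 81.3% overlaps a second annotated gene on the same strand, so its counts are uncertain.

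The 9 genes after lanosterol gave 1 lower gene, none higher, and a median log2 fold change of -0.16. Sc5d encodes lathosterol oxidase, which puts in the double bond of the sterol B ring. WT libraries ran from 16.3 through a median of 19.4 to 23.5 CPM and T166A libraries from 13.4 through 14.7 to 19.0 CPM. The groups overlapped, but none of the 6 T166A libraries reached the WT median. This gave a log2 fold change of -0.31 with an SE of 0.10 (edgeR adjusted p = 0.0241). This call was lost on leaving out any 1 of 6 libraries (WT replicates 3 and 6, T166A replicates 1, 4, 5 and 6), and over all 12 such fits the log2 fold change ran from -0.38 to -0.25.

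The remaining 8 genes of this stretch had log2 fold changes from -0.27 to 0.03, and none passed. Cyp51, whose product removes a methyl group from lanosterol, was at -0.21 (95% interval -0.46 to 0.04), and Tm7sf2, a sterol reductase gene, at -0.27 (-0.63 to 0.09). Lbr, whose product is a sterol reductase and a lamin-binding protein of the nuclear envelope, was at 0.03 (-0.15 to 0.21). Msmo1, Nsdhl and Hsd17b7, whose products together strip the methyl groups at carbon 4, were at 0.00, -0.06 and -0.17. Ebp, the sterol isomerase gene, was at -0.04 (-0.20 to 0.11), and Dhcr7, whose product catalyses a last reduction to cholesterol, at -0.16 (-0.39 to 0.08).

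The regulators held the smallest p-value of the 26 genes, and Insig1 and Insig2, the paired brakes of the system, moved in opposite directions. Insig1 encodes the INSIG that is itself an SREBP target. WT libraries ran from 87.2 through a median of 95.7 to 106 CPM and T166A libraries from 68.8 through 72.2 to 76.2 CPM. Every T166A library was below every WT library, and the gap between the groups was wider than the whole T166A range. The mean fell from 96.8 ± 7.35 to 72.1 ± 2.62 CPM, or -0.42 as a log2 fold change with an SE of 0.06 (edgeR adjusted p = 4.39e-06). Insig1 passed the threshold in all 25 alternative analyses of the skin table, with adjusted p from 1.47e-11 to 0.0106.

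Insig2, the other INSIG gene, is not known for this dependence on SREBP. It rose from 23.3, 24.0 and 25.3 CPM (lowest, median and highest WT library) to 23.9, 28.7 and 30.1 CPM in T166A. The groups overlapped in 1 T166A library, and the other 5 lay above the whole WT range. The log2 fold change was 0.21 with an SE of 0.07 (edgeR adjusted p = 0.0200), the smallest among the called genes, and all 5 transcript rows were higher in T166A. The call was lost without T166A replicate 2 or without T166A replicate 4.

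Stard4 encodes a carrier that moves cholesterol between membranes. WT libraries ran from 5.35 through a median of 6.19 to 7.61 CPM and T166A libraries from 5.99 through 8.25 to 9.52 CPM, with overlap. The fitted log2 fold change was 0.39 with an SE of 0.13 (edgeR adjusted p = 0.0253). Leaving out WT replicate 1 or 6, or T166A replicate 2, 5 or 6, ended the call, and over all 12 such fits the value ran from 0.34 to 0.46.

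Srebf2, the gene of the pathway's transcription factor, ran from 109 through a median of 120 to 128 CPM in WT and from 101 through 105 to 122.7 CPM in T166A. The groups overlapped, with 1 of 6 T166A libraries above the WT median. As a log2 fold change the difference was -0.14 (SE 0.06, 95% interval -0.26 to -0.03) and missed the threshold over all genes (edgeR adjusted p = 0.0587). It passed in 8 of 25 alternative analyses, among them DESeq2 and limma-voom. Scap, the escort gene, ran from 36.8 through 41.6 to 42.9 CPM in WT and from 37.2 through 38.7 to 46.0 CPM in T166A, with a log2 fold change of -0.03 and a 95% interval from -0.16 to 0.10. RNA levels of these genes do not show how much SREBP2 protein was cut and active.

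**Figure D2:**
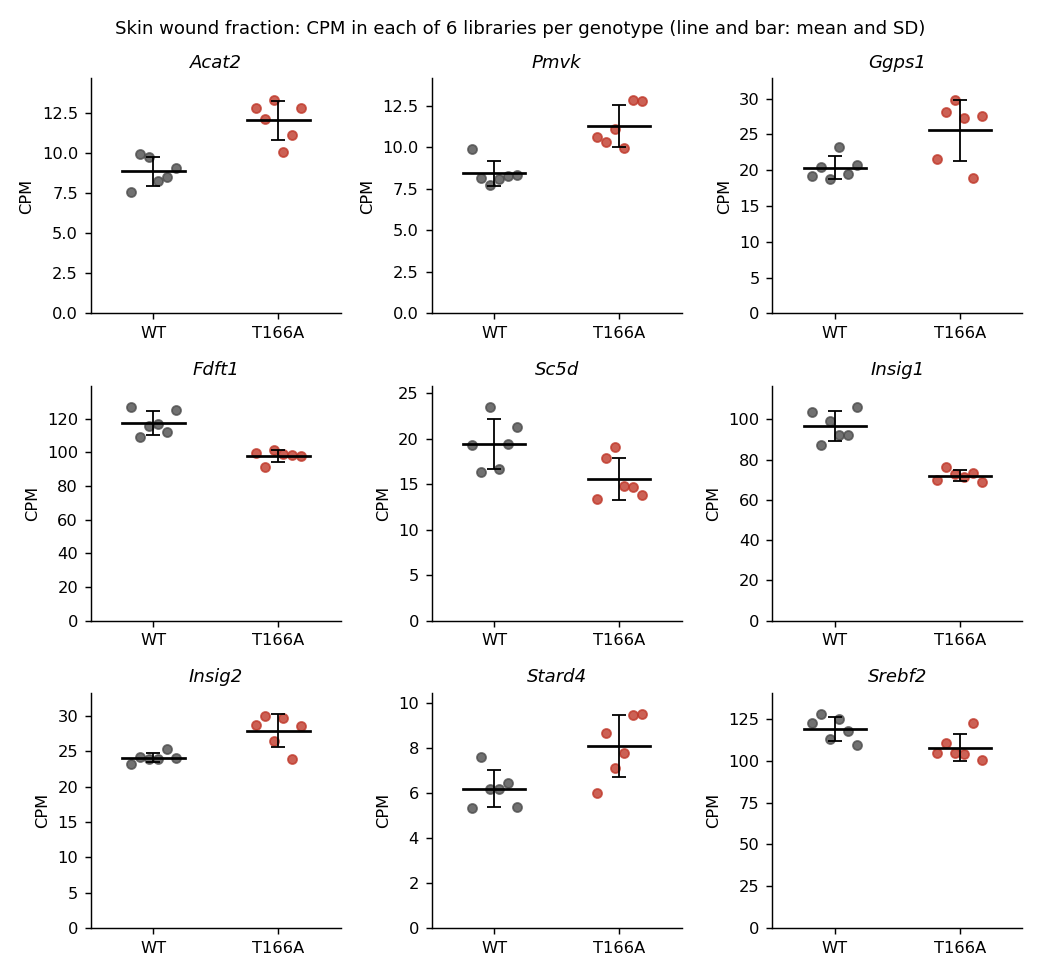
CPM in each skin wound library for the 8 genes that passed and for Srebf2, with 6 WT libraries (grey) and 6 T166A libraries (red) per panel, a line for the mean and a bar for the SD. Acat2, Pmvk, Fdft1 and Insig1 do not overlap between the genotypes, whereas Ggps1, Sc5d, Insig2, Stard4 and Srebf2 do.

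The fit was repeated with marker scores of other cells as covariates. With the mean log2 level of the adipocyte markers as a covariate, 3 of the 26 genes passed in place of 8, beside 5.75% of all genes. Insig1 (log2 fold change -0.67, edgeR adjusted p = 0.0106) and Sc5d (-1.03, adjusted p = 0.0197, edgeR) were lower, and Cyp51 turned from -0.21 to 0.89 (edgeR adjusted p = 0.0384). Of the 6 calls lost, Acat2 was at 0.49, Insig2 at 0.47, Stard4 at 0.36 and Fdft1 at -0.39, near or past their values without the score, and Pmvk was at 0.14 and Ggps1 at 0.22. The SE of these 6 genes rose, for Acat2 from 0.10 to 0.29 and for Fdft1 from 0.05 to 0.15. The adipocyte markers had a median log2 fold change of 2.37 between the genotypes, so this fit separates genotype from the score poorly. Its values, those of Cyp51 and Sc5d among them, are uncertain for this reason. With the sebocyte score, 3 genes were higher and 6 lower. Hmgcs1, Sqle, Cyp51 and Hsd17b7 joined the lower genes, and Insig2, Stard4 and Sc5d no longer passed. The sebocyte markers also differed between the genotypes, with a median log2 fold change of 0.47, so these calls are uncertain too. Cyp51 was at -0.52 with this score and at 0.89 with the adipocyte score. With the keratinocyte score 8 passed. The shares of all genes called with these 2 scores are not given here, so the counts are not read as results about the members. The part of other cells in the calls was not tested beyond these values.

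Lists of related genes were read in the same skin fit. Of 14 genes of fatty acid synthesis, the branch served by SREBP1, 7 were higher and 1 lower, with a median log2 fold change of 0.48 beside 0.01 over all genes. Me1, which supplies NADPH, rose from 13.0 ± 1.63 to 20.9 ± 1.16 CPM (log2 fold change 0.69), and Scd1, a fatty acid desaturase gene, had a log2 fold change of 1.30. Mlxipl, a carbohydrate-sensing transcription factor gene, was at 2.70, from a low level of 0.264 CPM in WT. Adipocyte and sebocyte markers rose with them, and their part in these values was not tested.

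Of 8 genes of LXR, the receptor for surplus sterols, with its targets and oxysterol enzymes, 6 were lower and 1 higher, with a median of -0.36. Nr1h3, the LXR alpha gene, fell from 34.2 ± 4.4 to 23.1 ± 1.74 CPM (log2 fold change -0.56). Abcg1, a cholesterol exporter gene, was at -0.48. Ch25h, whose product makes an oxysterol that retains SCAP, rose from 22.1 ± 3.65 to 38.2 ± 3.68 CPM (0.79). The macrophage markers were lower in the same libraries, 6 of 8 with a median of -0.32, and their part in these values was not tested.

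Of 13 genes of cholesterol uptake, storage and movement within the cell, 6 were lower and 1 higher, with a median of -0.14. Gramd1b, whose product carries cholesterol from the plasma membrane to the endoplasmic reticulum, fell from 230.6 ± 20.3 to 162 ± 13.0 CPM (log2 fold change -0.51). Soat1, the gene of the enzyme that stores cholesterol as esters, was at -0.26, and Vldlr, a lipoprotein receptor gene, at 0.87. Of 10 genes that process or degrade SREBP and its partners, 3 were higher and 1 lower, with a median of 0.16. Mbtps1, whose product makes the first cut in SREBP, was at 0.25 and Srebf1 at 0.19, while Rnf145, a ubiquitin ligase gene, was at -0.25. Por, which feeds electrons to Cyp51 and Sqle products, fell with a log2 fold change of -0.31 and was the single call among 7 measured partners of sterol synthesis. None of 11 genes of the isoprenoid branches passed, and 9 of them were above 0.

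**Figure D3:**
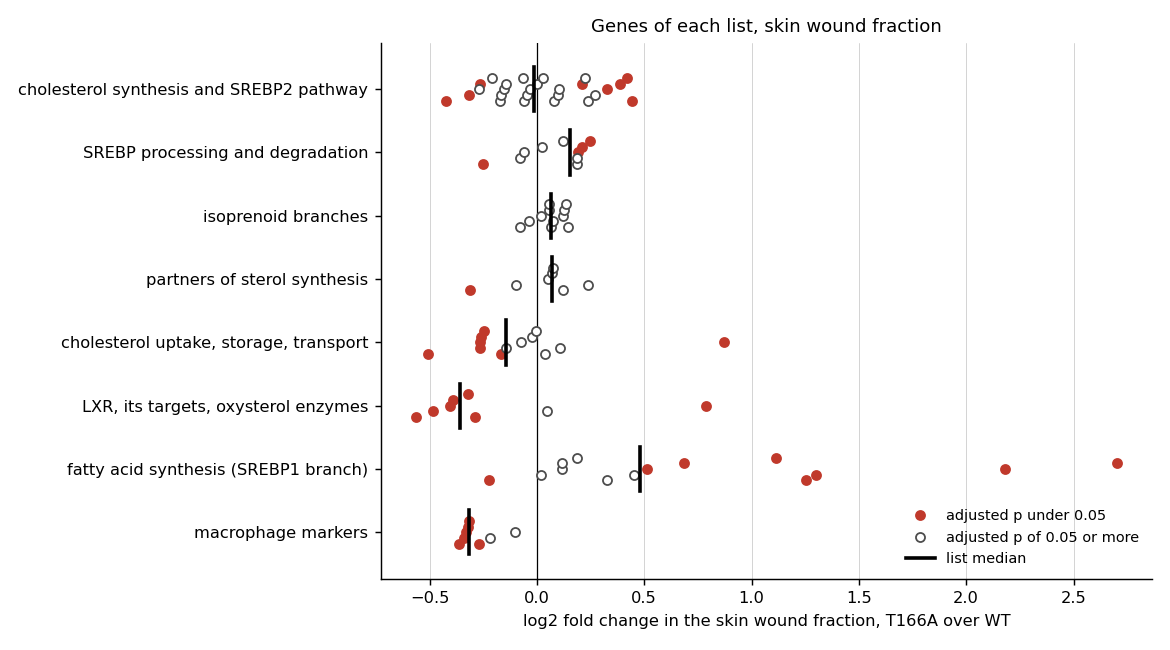
Log2 fold change of T166A over WT in the skin wound fraction for each gene of the cholesterol list, of 6 related lists and of the macrophage markers, filled where the adjusted p was under 0.05, with a bar at each list's median. The 26 pathway genes centre on -0.02, fatty acid synthesis lies to the right (median 0.48), and the LXR list (-0.36) and the macrophage markers (-0.32) lie to the left.

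In BMDM none of the 26 genes passed, beside 0.0685% of all 13139 genes tested (edgeR's quasi-likelihood test with batch as a term, 8 genes or 0.0609% higher and 1 gene or 0.00761% lower). At an unadjusted p under 0.05 there was 1 member, Stard4, beside 12.8% of all genes. DESeq2 and limma-voom also called 0 members, while calling 3.04% and 1.35% of all genes. The log2 fold changes ran from -0.25 for Insig2 to 0.55 for Idi1, with a median of -0.01 beside -0.02 over all genes. The genotypes overlapped for each of the 26 genes, beside 13.6% of all genes that did not overlap (6.67% higher and 6.97% lower in T166A). The intervals are wide: the SE ran from 0.13 to 0.64, against 0.05 to 0.18 in skin.

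Stard4 in BMDM read 5.69, 5.54 and 9.36 CPM in WT replicates 1, 2 and 3 and 7.80, 7.17 and 14.1 CPM in the T166A replicates. Replicate 3, of batch B2, was the highest in each genotype, and each T166A library lay above the WT library of the same number. This gave a log2 fold change of 0.47 with an SE of 0.19 (edgeR adjusted p = 0.368), with 0.41 within B1 and 0.58 within B2. Srebf2 read 72.5, 58.3 and 41.9 CPM in WT and 84.8, 75.1 and 45.1 CPM in T166A, lowest in replicate 3 of both genotypes. Its log2 fold change was 0.23 (95% interval -0.09 to 0.55).

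Scap read 60.8, 45.7 and 44.7 CPM in WT and 70.2, 56.6 and 35.4 CPM in T166A, with a log2 fold change of 0.06 (95% interval -0.36 to 0.47). Insig1 read 19.9, 16.0 and 21.4 CPM in WT and 21.1, 16.6 and 26.03 CPM in T166A (0.14, interval -0.25 to 0.53). Insig2 read 27.4, 28.0 and 30.0 CPM in WT and 20.1, 23.9 and 28.2 CPM in T166A (-0.25, interval -0.58 to 0.08). The ranges of the genotypes overlapped for each of these regulators. Between libraries of the same number, Srebf2 and Insig1 were higher and Insig2 lower in T166A in all 3 pairs, and Scap was higher in 2 of 3. With the replicate number as a block none passed (edgeR adjusted p = 0.409 for Srebf2, 0.688 for Insig1, 0.424 for Insig2 and 0.881 for Scap).

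For several genes T166A replicate 3, the single T166A library of batch B2, stood apart from the other BMDM libraries. It was the highest T166A library for 19 of the 26 genes, and T166A replicate 1 was the lowest for 13. WT replicate 3, also of B2, was the highest WT library for 12. A trait of this library and an effect of its batch cannot be told apart, and no share over all genes is given for these counts. Idi1 read 1.86, 1.55 and 1.40 CPM in WT and 0.901, 1.72 and 8.28 CPM in T166A. Sqle read 8.76, 10.3 and 9.02 CPM in WT and 8.04, 9.19 and 28.3 CPM in T166A. Cyp51 read 15.3, 15.8 and 21.3 CPM in WT and 11.4, 10.8 and 34.6 CPM in T166A. In all 3 genes T166A replicate 3 stood above every other library, and the other T166A libraries were near or below WT. Acat2, Hmgcs1, Fdps and Msmo1 also had their highest value in that library, whereas Aacs, Mvd, Fdft1, Dhcr7, Srebf2 and Scap were lowest in T166A replicate 3 among the T166A libraries.

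Values within the batches are given beside the pooled ones. The median log2 fold change of the 26 genes was -0.10 in B1, with 2 libraries per genotype, and 0.22 in B2, with 1 per genotype, beside 0.00 and -0.06 over all genes. The sign was the same in both batches for 11 of the 26 genes, beside 52.4% of all genes. Without T166A replicate 3 the count of calls was again 0 (edgeR), the median was -0.10, and Idi1 and Sqle lay below 0. The same library held Col1a1, a collagen gene of fibroblasts, at 244 CPM, against 2.12 to 14.7 CPM in the other 5, and a summed fibroblast marker level of 410.8 CPM. The part of those cells in the sterol gene values was not tested.

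**Figure D4:**
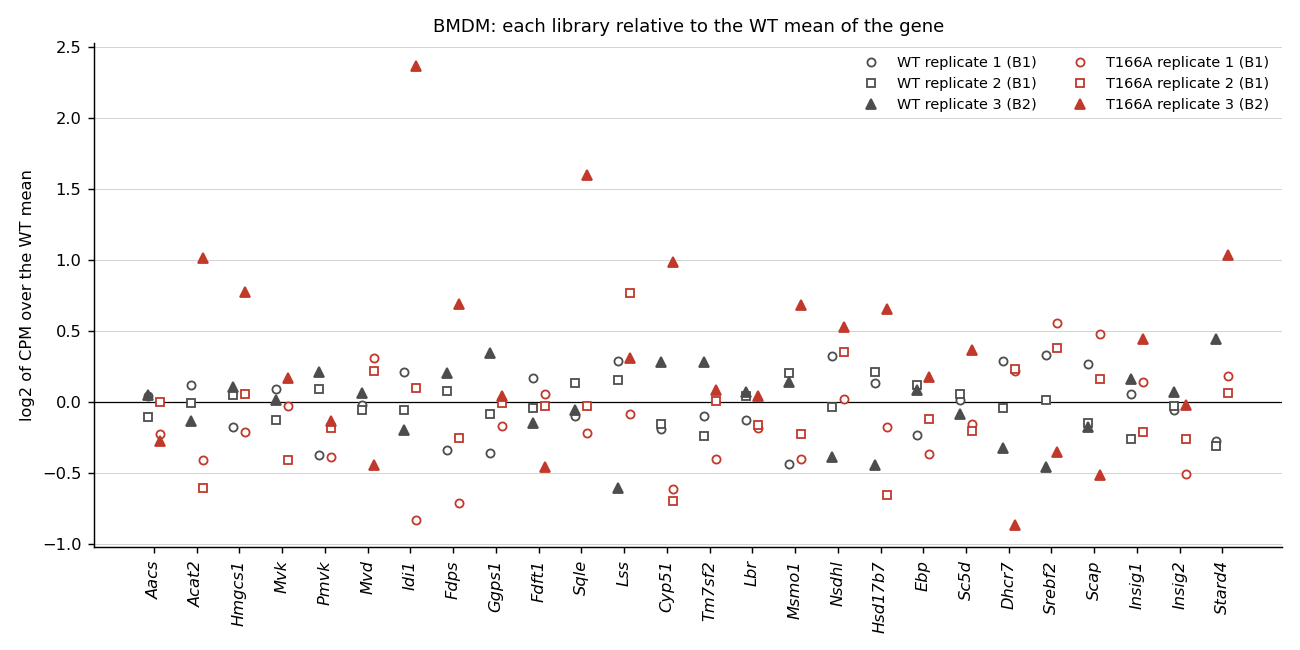
Log2 of the CPM of each BMDM library over the gene's WT mean, for the 26 genes ordered by role, with WT in grey and T166A in red, open symbols for batch B1 and filled triangles for batch B2. T166A replicate 3 lies far above the rest for Idi1, Sqle, Acat2 and Cyp51, and below the rest for Dhcr7.

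A call in skin and none in BMDM does not show that the genotype acts differently in the 2 sources, so the difference itself was tested. In 1 edgeR fit over all 18 libraries, 3 of the 26 genes had a different genotype effect in skin than in BMDM, beside 14.3% of the 16586 genes tested. The effect in skin minus that in BMDM was 0.68 on the log2 scale for Pmvk (adjusted p = 0.0148), -0.53 for Insig1 (adjusted p = 0.0118) and 0.50 for Insig2 (adjusted p = 0.0126, edgeR). In each of them the estimates had opposite signs: Pmvk -0.22 in BMDM and 0.42 in skin, Insig1 0.14 and -0.42, Insig2 -0.25 and 0.21. That fit gives both sources a shared spread, although BMDM libraries varied more among themselves (coefficient of biological variation 0.279) than skin libraries did (0.133). When each source kept its own spread, none of the 3 passed (adjusted p = 0.123, 0.127 and 0.138 from the separate edgeR fits), while 2.46% of all genes did. The call for Pmvk was also lost without BMDM WT replicate 2 (edgeR adjusted p = 0.0537).

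The sources also differed in which members were most abundant, as levels in CPM per kilobase of the counted transcript in WT. In skin the order began with Insig1 at 35.9 ± 2.72, Fdft1 at 31.8 ± 1.91 and Srebf2 at 23.5 ± 1.40, then Ebp at 13.0 ± 1.20 and Hmgcs1 at 12.6 ± 0.956 (SD, n = 6). Insig1 lay above Fdft1 by less than their combined spread, Srebf2 lay below both in every library, and Ebp and Hmgcs1 overlapped. The order ended with Stard4 at 1.22 ± 0.162 and Lss at 0.607 ± 0.114. In BMDM it began with Ebp at 44.1 ± 5.75, Fdft1 at 39.3 ± 4.47, Msmo1 at 21.3 ± 4.86 and Fdps at 18.7 ± 3.50 (SD, n = 3), with overlap within the first pair and within the second. It ended with Hsd17b7 at 0.871 ± 0.199 and Idi1 at 0.530 ± 0.077. Insig1 stood at rank 1 of 25 genes with a length in skin and at rank 14 of 24 in BMDM. The places of Fdft1 and Fdps are uncertain, since 20.9% and 81.3% of their counted rows overlap exons of other genes. The tables were scaled separately and come from different cells, so these levels are set side by side with no test.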

How the data were processed

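RNA counts were deposited by the authors as 1 table for BMDM and 1 for skin, with whole-number counts per RefSeq transcript. Per the submitters' processing notes the tools were FastQC 0.12.1, cutadapt 4.4, HISAT2 2.2.1 and featureCounts, with genome build mm10; the sources used here do not give the strand setting or the treatment of shared reads. Of 45895 transcript rows for BMDM and 45843 for skin, 45744 and 45692 were named through RefSeq, 34 each through GENCODE, and 117 each (0.514% and 0.187% of counts) not at all. Each gene was represented by its transcript row with the highest summed CPM, since rows of a gene share reads and summing them raises the total 2.036-fold and 2.042-fold.

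Each table was fitted whole with edgeR 4.0.16 in R 4.3.3 (TMM scaling, filterByExpr set to at least 10 counts and 15 in all, robust quasi-likelihood test), with batch as a term in BMDM and none in skin. P-values were adjusted by Benjamini-Hochberg over all genes tested, with a threshold of 0.05. The SE is the log2 fold change over the root of its F value. Alternatives used DESeq2 1.42.0 and limma 3.58.1 and other scalings, filters and covariates. Same-numbered BMDM libraries deviated together (r = 0.20, 0.11 and 0.19 for numbers 1, 2 and 3). The highest r with a library of another number was -0.017 for numbers 1 and 2 and -0.053 for number 3. Batch was left in these correlations, and number 3 is the B2 library of each genotype, so its value cannot show pairing. Numbers 1 and 2 are both of B1, and whether they are pairs was not tested further. The labels state no pairs. The numbers were taken as pairs only for the replicate block and for comparisons by number, not for the main fit. The edgeR fits, and not the other steps, were tested on simulated counts. Of 50 genes changed 1.5-fold, 2 were recovered in BMDM, 47 in skin and 12 in the joint fit. Of 50 genes changed 2-fold, 16, 50 and 33 were recovered. The changed genes were drawn only from those with high expected counts in every library, and all genes of a source had the same spread. Recovery of members with low counts, such as Mvk and Lss in skin, was therefore not simulated. Unchanged genes called numbered 3 in BMDM, 13 in skin and 121 of 16306 genes tested in the joint fit.

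The 26 genes, the other lists and the motifs were chosen with earlier results of these data known. All 26 genes are described. Values by library are given for genes that passed and for Srebf2, Scap, Insig1 and Insig2, and some BMDM genes were added after their values were seen. From each other pathway list at most the 3 genes with the smallest p in skin are named. Cell type markers are named as examples, as the most abundant of their list, or for being at 0.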

Additional observations from a re-analysis of the deposited data

Results flagged for a closer look

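In 8 cases 1 skin library stood apart from the other 5 of its genotype, with a gap to the nearest library that took up most of the group's range (above Dixon's 95% critical value). The check covered 52 groups of 6 libraries, and chance marks about 1 in 20 such groups. Among WT libraries, Pmvk was at 9.90 CPM in replicate 1 (others 7.75 to 8.35), Mvd at 14.7 CPM in replicate 5 (others 17.2 to 18.1), Sqle at 21.9 CPM in replicate 2 (others 14.4 to 16.6), and Lbr at 39.6 CPM in replicate 2 (others 27.8 to 30.7). WT replicate 2 was the highest WT library for 11 of the 26 genes. Among T166A libraries, Idi1 was at 2.85 CPM in replicate 5 (others 5.41 to 6.67), Fdft1 at 91.2 CPM in replicate 2 (others 97.9 to 101.5), Sqle at 17.2 CPM in replicate 1 (others 13.4 to 14.5), and Hsd17b7 at 8.14 CPM in replicate 2 (others 4.15 to 5.18).

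The genotype effect in skin minus that in BMDM was 0.68 for Pmvk, -0.53 for Insig1 and 0.50 for Insig2 on the log2 scale, each past the threshold in the joint edgeR fit and none past it in the separate fits.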

How the results depend on the processing

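The count of BMDM calls was 0 in all 18 alternatives. In skin 8 genes passed, beside 25.9% of all genes, against 3 with the adipocyte score, where 5.75% of all genes passed. The other settings that kept all libraries gave 7 to 9, with 28.1% of all genes called by DESeq2 and 29.4% by limma-voom. Leaving out 1 library gave 6 to 8. The shares of all genes in those fits are not given here, so that range is not read as a result about the members. Srebf2 was the added gene with RLE size factors, DESeq2, limma-voom, the replicate block and the length trend. The markers in the adipocyte score differed between the genotypes, and the SE of the lost calls rose. The cause of the fall with that score was not tested. For the difference between sources, 3 genes passed, against 0 in the separate fits, which keep each source's own spread, and 2 to 4 without 1 library. Library totals without scaling factors were chosen after seeing the data and moved the median of all genes in skin from 0.01 to 0.096. In BMDM the replicate block, for numbers taken as paired, changed no call. In skin same-numbered libraries had correlations from -0.045 to 0.09, and the best match was the own number in 0 of 6 cases. The block gave 9 calls there, beside 29.4% of all genes.

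Genes that did not pass changed sign as follows (log2 fold change). In BMDM Acat2 was at 0.0033 with RLE size factors, 0.0082 with a minimum count of 50 and 0.0025 with DESeq2, and Sc5d at -0.0064 without a filter. With limma-voom Sc5d was at -0.088 and Ggps1 at 0.12. With the length trend removed, without and then with the replicate block, Mvk was at 0.051 and 0.045, Fdps at 0.083 and 0.080, Tm7sf2 at 0.059 and 0.057, Ebp at 0.021 and 0.023, Sc5d at -0.15 and -0.14, Scap at -0.041 and -0.041, Acat2 at 0.060 and 0.058, and Ggps1 at 0.16 and 0.16. Without scaling factors Hsd17b7 was at 0.0032, Acat2 at 0.029 and Ggps1 at 0.019. Without a batch term Fdps was at 0.032, Cyp51 at 0.12, Hsd17b7 at 0.045 and Acat2 at 0.19. In batch B1 alone Hmgcs1 was at -0.015, Idi1 at -0.38, Sqle at -0.14, Msmo1 at -0.23, Sc5d at -0.22, Dhcr7 at 0.089 and Ggps1 at 0.13.

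In skin Msmo1 was at -0.0049 with RLE size factors, -0.00024 with a minimum count of 50, -0.0049 with DESeq2, -0.0090 with the replicate block, -0.0060 with the length trend removed and -0.016 with both. Without scaling factors Hmgcs1 was at 0.024, Nsdhl at 0.025, Ebp at 0.045 and Scap at 0.055. With the adipocyte score Hmgcs1 was at 0.33, Mvd at -0.40, Sqle at 0.56, Cyp51 at 0.89, Hsd17b7 at 0.19 and Ebp at 0.080. With the sebocyte score Idi1 was at -0.019, Msmo1 at -0.11, Lbr at -0.065 and Aacs at -0.0091.

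With 1 library left out, the lowest and highest values of genes that crossed 0 in BMDM were Mvk -0.19 to 0.075, Mvd -0.070 to 0.30, Cyp51 -0.49 to 0.082, Msmo1 -0.23 to 0.30, Hsd17b7 -0.57 to 0.31, Acat2 -0.56 to 0.27, Fdps -0.35 to 0.13, Ebp -0.19 to 0.034, Scap -0.12 to 0.25, Ggps1 -0.13 to 0.13, Hmgcs1 -0.014 to 0.35, Idi1 -0.38 to 1.16, Sqle -0.14 to 0.71, Sc5d -0.22 to 0.11, Dhcr7 -0.27 to 0.091 and Tm7sf2 -0.20 to 0.011. In skin they were Msmo1 -0.056 to 0.059, Lbr -0.011 to 0.11 and Mvd -0.0037 to 0.13. The SE was largest for Hsd17b7 in skin (0.18) and for Idi1 in BMDM (0.64), both low there.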
